A study of Debaryomyces hansenii with 6 samples.

Results

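The change in transcript levels between 0.5 h and 3 h of salt stress was examined in Debaryomyces hansenii, a yeast of the sea and of salted foods that tolerates high salt. It was read from 4 of the 6 Agilent 2-colour arrays of the study, the 2 of 3 h and the 2 of 0.5 h, as the difference of their log2 ratios (later minus earlier). Cells had been grown at batch scale in rich YPD medium, and NaCl was added to 2 M. Every array set RNA of the stressed cells against RNA of an aliquot taken at time 0, before the salt, and a log2 ratio above 0 means more of a transcript in the stressed cells. Replicate 1 carried the stressed RNA in Cy5 and replicate 2 carried it in Cy3, from other biological replicates, so that dye and replicate are 1 split of the arrays. The labels name no strain and no gene alteration. The numbers 1 and 2 follow the dye orientation. Whether arrays of the same orientation share a culture or control RNA across the times is not given. No unstressed cells of 0.5 h or 3 h were on the arrays, so salt and time in culture cannot be told apart. Both times of a replicate had the same orientation, so a fixed bias of a probe towards one dye drops out of a replicate's own difference. In bulk RNA, fewer cells with a transcript and less of it per cell cannot be told apart.

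When salt rises outside a yeast cell, water leaves it, and in Saccharomyces cerevisiae the HOG kinase pathway then raises glycerol synthesis and the transcription of stress genes. In that species much of the early transcript response is transient: genes for growth and ribosome production go down first and come back as the cells adapt. The loci below have no function in the array files or in the reference table, so they are given by locus name, and no role is attached to any of them.

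The array held 6320 genes with 2 probes each, and 5966 genes had a probe bright enough to test, 5120 of them with a locus name. Probes well above background made up 78.9% to 83.7% of each of the 4 arrays for the stressed RNA, and 62.4% to 93.4% for the control RNA. The 3 h array of replicate 1 stood apart in its spike-in transcripts, which are added in known mixtures: the slope of their observed against stated log ratios was 0.295 there and between 0.788 and 0.926 on the other 5 arrays of the series. A slope below 1 means that known ratios were read too small. The 4 arrays correlated positively with each other across genes after the ratios were turned, with r from 0.22 between 0.5 h of replicate 2 and 3 h of replicate 1 to 0.60 between the 3 h arrays. Precision is limited by the 2 arrays a time, and an exact two-sided permutation test on 1 gene could give no p below 0.333.

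In the main fit over the 6 arrays 1 transcript changed between 0.5 h and 3 h beyond the spread of the arrays, that of DEHA2E14234g. Its log2 ratios to the control were -2.78 and -2.87 on the 0.5 h arrays and 0.66 and 0.36 on the 3 h arrays. Both early arrays lay far below the control and both later ones a little above it. The level rose by 3.33 ± 0.25 on the log2 scale (SE, 2 arrays a time), which is 10.1-fold. Its adjusted p in limma was 0.00615, where the adjustment is that of Benjamini and Hochberg over all genes tested. The rise was 3.43 in replicate 1 and 3.23 in replicate 2, and the gene's second probe gave 3.15. At 6 h the log2 ratios were 0.65 and 0.12, so the transcript stayed near its 3 h level on both arrays. The adjacent loci on chromosome E did not share the rise: DEHA2E14212g differed by 0.03 and DEHA2E14256g by 0.30, with adjusted p of 0.975 and 0.776 in limma, the second with 1 array value of 3 h left out as an outlier spot. DEHA2E14234g was 1 of 1 genes called, 0.0168% of those tested, and its call ended where a 0.5 h array was left out (differences of 3.38 and 3.29, adjusted p of 0.213 and 0.252 in limma). It ended as well with the scanner software's processed signals, the authors' deposited table and centring on the median, with values given under the processing. Other fits called more genes, 11 with the replicate as a block and 9 with a trended and robust moderation, DEHA2E14234g among both.

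Across all tested genes the differences were small and only partly shared by the replicates. The quartiles lay at -0.17 and 0.25 on the log2 scale, with a median of 0.04, against a median SE of 0.24. Replicate 1's and replicate 2's differences correlated across genes with r = 0.32, a description without a p since genes are not independent, and had the same sign for 56.3% of the genes. Both replicates were higher at 3 h by at least 1, which is a doubling, for 48 genes (0.805% of those tested), lower by at least 1 for 14 (0.235%), and past 1 in opposite directions for 2 (0.0335%). The SD of the differences across genes was 0.41 in replicate 1 and 0.57 in replicate 2. Replicate 1 holds the 3 h array with the low spike-in slope, and a link of that array's slope with the SD was not tested. Without that array 14 genes passed in limma, 13 higher and 1 lower at 3 h, and without the 3 h array of replicate 2 there were 7, 3 higher and 4 lower. DEHA2E14234g was among both.

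**Figure D1:**
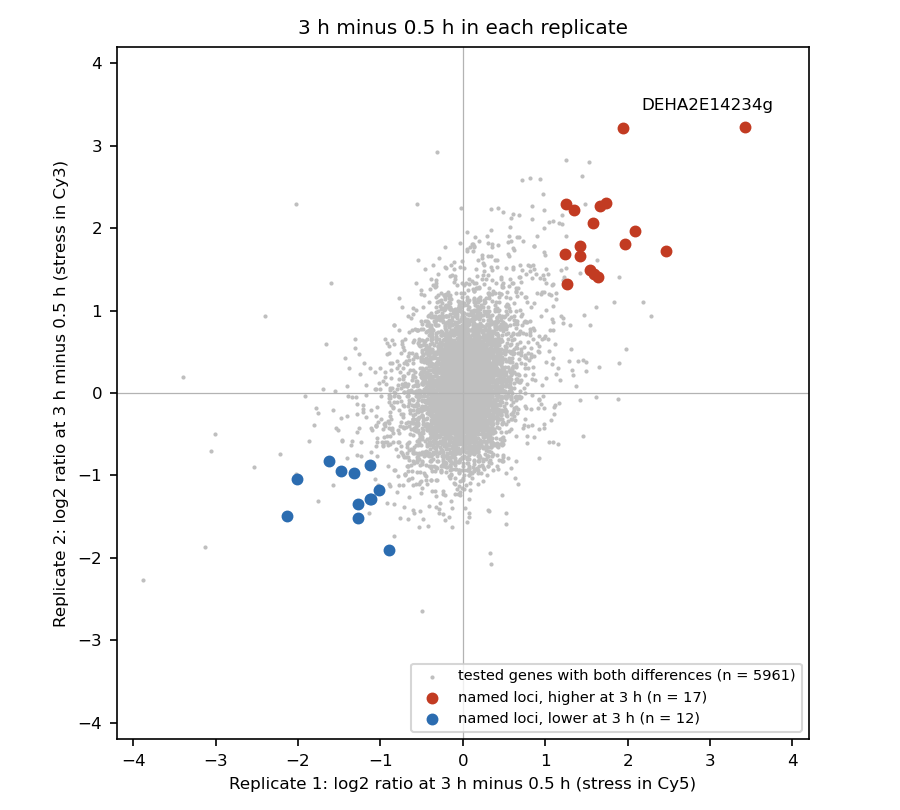
Difference of the log2 ratio at 3 h minus 0.5 h in replicate 1 (horizontal) and replicate 2 (vertical), 1 point per gene, with the 29 named loci in colour. DEHA2E14234g lies at 3.43 and 3.23, and the cloud of genes is wider along replicate 2 (SD 0.57) than along replicate 1 (SD 0.41).

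At an unadjusted p under 0.05 in limma 540 genes differed, 9.05% of those tested, 326 of them higher at 3 h (5.46%) and 214 lower (3.59%). None of them but DEHA2E14234g passed the adjustment, so these counts describe the fit and name no changed gene. The share of higher genes among them was 60.4%. It was 30.0% when arrays were centred on the median in place of loess, 46.9% with the dimmer probe of each gene and 43.8% without the 3 h array of replicate 2, so the balance of directions turned with these settings. Under centring the median difference ran from 0.29 in the dimmest of 3 brightness classes to -0.35 in the brightest, where loess gave 0.01 and 0.08.

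A fit with the replicate as a block, which removes what the arrays of a replicate or dye orientation share, called 11 genes in limma, 0.184% of those tested, and all 11 were higher at 3 h. They were DEHA2E14234g, with limma's adjusted p at 0.00222, and 10 loci whose adjusted p lay between 0.0459 and 0.0485 in that fit and between 0.0789 and 0.305 without the block. The named loci are these 11 and the 12 highest and 12 lowest by limma's moderated statistic, 29 in all, 17 higher and 12 lower. Since they were ranked by this difference, their agreement between arrays is part of the choice: the 3 h arrays lay wholly on one side of the 0.5 h arrays for 29 of 29. Among all genes this held for 37.6%, 21.2% higher and 16.4% lower at 3 h, and nothing is read from the count.

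A first kind of locus stood below the control at 0.5 h and above it at 3 h. DEHA2G03740g had log2 ratios of -0.99 and -1.36 at 0.5 h and of 1.09 and 0.61 at 3 h, a difference of 2.03 ± 0.25 (SE, 2 arrays a time). Its adjusted p in limma was 0.0789, or 0.0459 with the block. It crossed the control level in both replicates, and at 6 h it was below it again, at -0.76 on each array. Its second probe gave a smaller difference of 1.37. DEHA2D14212g and DEHA2D08426g had mean ratios of -0.84 and -1.22 at 0.5 h and of 0.95 and 0.67 at 3 h, so their differences were 1.79 and 1.89. DEHA2D10076g went from -0.60 to 0.93 and stood at -0.98 at 6 h, and DEHA2F10582g went from -0.53 to 1.01 and stood at -0.40. On the brighter probe 6 of the 29 loci took this course, DEHA2E14234g among them. The course means a mean ratio of at most -0.5 at 0.5 h and of at least 0.5 at 3 h. Of all 5966 genes tested 14 took it. On the second probe DEHA2E14234g, DEHA2G03740g and DEHA2D08426g reached only 0.25, 0.19 and 0.18 at 3 h, within 0.5 of the control. DEHA2D14212g, DEHA2D10076g and DEHA2F10582g reached 1.13, 0.5 and 0.7 on theirs. The means of the 6 loci at 6 h ran from -0.98 to 0.39, and the change from 3 h to 6 h was not tested here.

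A larger number, 8 of the 29, were within 0.5 of the control at 0.5 h and at least 0.5 above it at 3 h. This held for 566 of all genes tested. For DEHA2C02552g the log2 ratios were -0.20 and -0.14 at 0.5 h and 2.28 and 1.59 at 3 h. The early arrays showed no more than the control level, and the difference was 2.10 ± 0.26 (SE, 2 arrays a time), for which limma's adjusted p was 0.0789, or 0.0459 with the block. With the dimmer probe alone the locus passed, at 2.20 and an adjusted p of 0.0407 in limma. DEHA2C03476g had -0.08 and -0.12 at 0.5 h, 1.59 and 2.14 at 3 h and 2.51 and 2.80 at 6 h, so that each later pair of arrays lay above the earlier one. Its difference of 1.97 ± 0.25 had an adjusted p of 0.0789 in limma, 0.0459 with the block, and its control was well above background on 1 of the 2 arrays of 3 h. DEHA2B01804g and DEHA2A09306g, both called with the block, had differences of 2.02 and 1.52 and stood above the control on both 6 h arrays. DEHA2A11198g and DEHA2B13662g differed by 1.47 and 1.29 with adjusted p of 0.149 and 0.161 in limma. DEHA2D02376g and DEHA2F03828g, with differences of 1.61 and 1.52 and 6 h means of 0.33 and 0.39, are less certain, since each has a probe with a run of 25 bases or more in common with another gene's probe, and centring on the median in place of loess left 0.01 of the first difference and -0.13 of the second.

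Another 3 loci were above the control at both times and higher at the second. Of all genes tested 177 were above it by at least 0.5 at both times. DEHA2G18964g had log2 ratios of 0.35 and 0.81 at 0.5 h and 2.29 and 4.03 at 3 h. The 3 h arrays differed from each other by more than the early arrays did, and the difference of 2.58 ± 0.59 (SE, 2 arrays a time) had an adjusted p of 0.233 in limma without the block and 0.0459 with it. DEHA2F25344g differed by 1.82 ± 0.49, also called with the block alone, and its control was well above background on 1 of 2 arrays at each time. DEHA2F22242g differed by 1.78 ± 0.30. All 3 were still at a mean of at least 1.68 at 6 h. Centring on the median made the differences of 10 of the 17 higher loci smaller by over 1.5 times. Besides DEHA2D02376g and DEHA2F03828g it gave 0.77 for DEHA2G03740g, 0.95 for DEHA2B01804g, 1.17 for DEHA2D08426g, 0.88 for DEHA2A09306g, 0.65 for DEHA2F22242g, 0.42 for DEHA2B13662g, 0.44 for DEHA2D10076g and 0.48 for DEHA2F10582g. Without the 3 h array of replicate 2 DEHA2G18964g differed by 1.71. Over the 17 higher loci the second probe gave differences from 1.07 to 3.15.

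**Figure D2:**
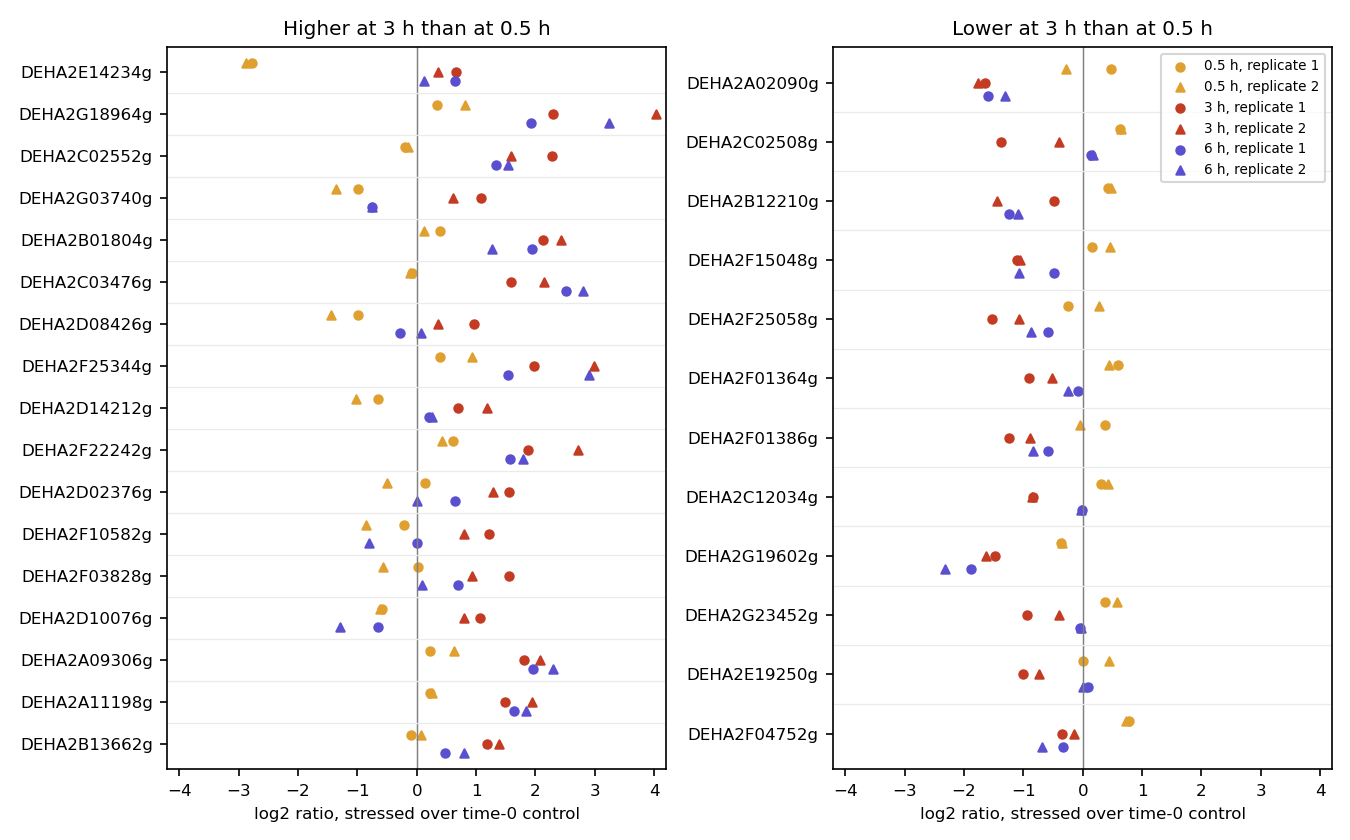
Log2 ratio of stressed over time-0 RNA on each of the 6 arrays for the 17 named loci higher at 3 h (left) and the 12 lower (right), ordered by the size of the difference. Circles are replicate 1 and triangles replicate 2, and for DEHA2E14234g both 0.5 h arrays lie at -2.78 and -2.87 while the 3 h and 6 h arrays lie between 0.12 and 0.66.

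Over the 6 arrays limma called 0 loci lower at 3 h than at 0.5 h, with or without the block, while 214 genes were lower at an unadjusted p under 0.05. Lower calls came with other settings: 3 with a trended and robust moderation (DEHA2C02508g, DEHA2C12034g and DEHA2F01364g), 4 without the 3 h array of replicate 2, DEHA2C02508g among them, and 1, DEHA2B12210g, without the 3 h array of replicate 1. The 12 lowest by statistic had a median difference of -1.22 and adjusted p from 0.149 to 0.225 in limma. DEHA2A02090g had log2 ratios of 0.47 and -0.28 at 0.5 h and of -1.65 and -1.77 at 3 h. Its early arrays lay on both sides of the control and its later ones together below it, a difference of -1.81 ± 0.28 (SE, 2 arrays a time). Limma's adjusted p was 0.149, and the second probe gave -1.81. At 6 h it was at -1.60 and -1.31.

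DEHA2C12034g had log2 ratios of 0.30 and 0.42 at 0.5 h and of -0.83 and -0.86 at 3 h, and was at -0.02 and -0.03 at 6 h. The pairs of arrays lay close together at each time, and the difference was -1.21 ± 0.19 (SE, 2 arrays a time), adjusted p 0.149 in limma, although its second probe gave -0.46 and centring on the median -1.88. DEHA2F15048g had 0.16 and 0.46 at 0.5 h and -1.11 and -1.06 at 3 h, a difference of -1.39 ± 0.25, and DEHA2F01364g had 0.59 and 0.44 and then -0.90 and -0.51, a difference of -1.22 ± 0.22, both with an adjusted p of 0.175 in limma. DEHA2F01386g, the locus next to DEHA2F01364g, had the same difference of -1.22. DEHA2G19602g was at a mean of -0.35 at 0.5 h, at -1.55 at 3 h and at -2.10 at 6 h. DEHA2C02508g was at 0.64 at 0.5 h and at -1.38 and -0.40 on the 3 h arrays, a difference of -1.53 that replicate 1 showed with -2.01 and replicate 2 with -1.04.

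By the same bounds of 0.5, 9 of the 12 lower loci went from near the control to below it, 2 from above to below it and 1 from above to near it. Of all genes tested 385, 6 and 78 took these courses, in the same order. The 1 of the 12 loci that ended near the control was DEHA2F04752g, with 0.78 and 0.73 at 0.5 h and -0.35 and -0.15 at 3 h. At 6 h the 12 loci had means between -2.10 and 0.16, and 8 of them were nearer to their 3 h than to their 0.5 h level. Of the 17 higher loci 12 were. The loci were ranked by the 3 h minus 0.5 h difference and no share over all genes stands beside these counts, so nothing is read from them. The 6 h arrays did not enter the differences, though their spread enters the SE.

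The genes at an unadjusted p under 0.05 were sorted by the same bounds. Of the 326 higher at 3 h, 197 went from near the control to above it, 44 stood above it at both times, 25 came from below to near it and 13 from below to above it, while 46 stayed within 0.5 at both times and 1 stayed below. Of the 214 lower, 134 went from near to below the control, 51 stayed within 0.5, 19 came from above to near it, 4 went from above to below, 4 were below and 2 above at both times. Over all genes tested, 4550 stayed within 0.5 at both times. The 197 that arrived above the control at 3 h had a median log2 ratio of 0.39 at 6 h, and the 134 that arrived below it had -0.30. All 566 and 385 genes on these courses had medians of 0.37 and -0.31. The 13 that crossed from below to above it had a median of -0.46 at 6 h, and the 25 that came back near it had -0.60. All 14 and 82 genes on these courses had -0.43 and -0.59. The genes picked by p are part of all genes on the same course, 13 of 14 for the crossing from below to above. Their medians are therefore not independent, and nothing is read from the closeness. These courses rest on the arrays that gave the p-values and on genes that did not pass the adjustment, and are a description.

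**Figure D3:**
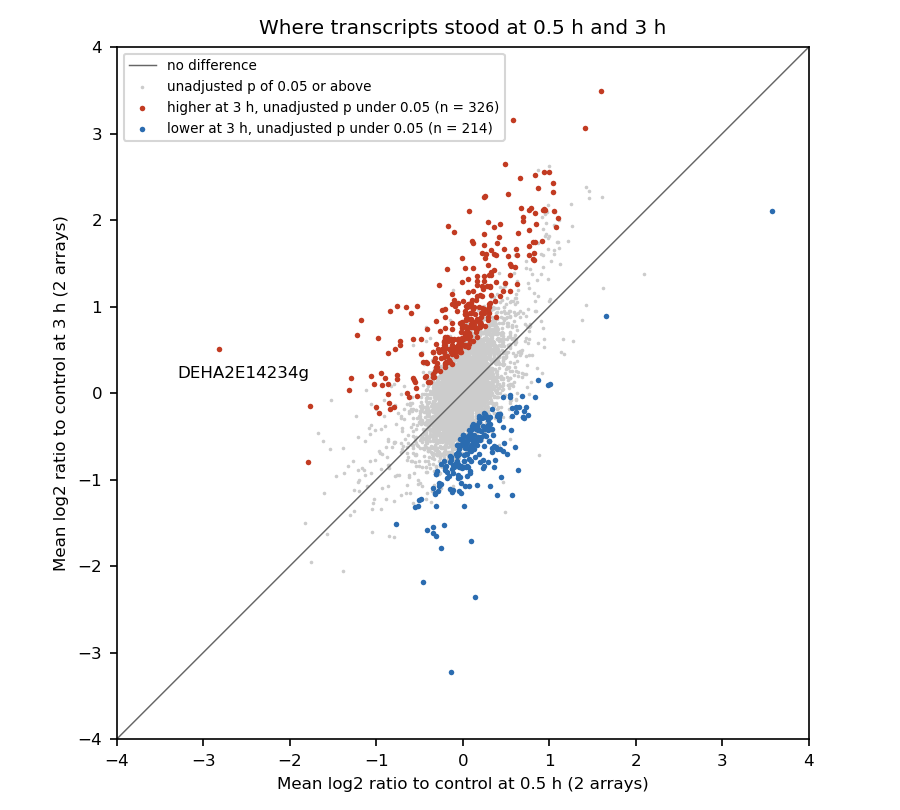
Mean log2 ratio to the time-0 control at 0.5 h (horizontal) and 3 h (vertical), 1 point per gene, with the 326 genes higher and the 214 lower at an unadjusted p under 0.05 in colour and the line of no difference. Most coloured points start within 0.5 of the control at 0.5 h, and DEHA2E14234g starts at -2.82.

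A difference of ratios can come from the stressed RNA or from the control RNA of the arrays. After the arrays' brightness was put on 1 scale, each channel was compared between the arrays of 3 h and 0.5 h. The stressed channel was among the alternatives listed beforehand, with earlier results of these data known. The control channel was added after the data had been seen. For DEHA2E14234g the stressed signal differed by 2.99 in replicate 1 and 3.63 in replicate 2, while the control signal differed by -0.44 and 0.40. In its stressed channel alone, with the block, it was called with an adjusted p of 0.00571 in limma, along with DEHA2C02552g, DEHA2C03476g and DEHA2G18964g (0.0191, 0.0255 and 0.0263). These 4 were 0.0670% of the genes. In the control channel limma called 0 genes, with 373 at an unadjusted p under 0.05 (6.25% of the genes), against 693 (11.6%) in the stressed channel.

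All 29 named loci differed more in the stressed than in the control channel on the mean of the replicates, and the stressed signal went the way of the difference in both replicates for 29 of 29. Over all genes the shares were 58% and 45.4%. The loci were chosen by the difference that these channel values make up, so the counts describe the choice and nothing is read from them. The control signal went the opposite way in both replicates, and so added to the difference, for 7, or 24.1%, and for 32.5% of all genes. For DEHA2D02376g the stressed channel differed by 1.00 and the control by -0.61, with an unadjusted p of 0.0369 for the control in limma, and for DEHA2G03740g the values were 1.49 and -0.54. The control channels were less alike between 0.5 h and 3 h, with r across genes of 0.904 in replicate 1 and 0.944 in replicate 2, than between 0.5 h and 6 h, with 0.987 and 0.986. In replicate 1 the differences of the stressed and the control channel correlated across genes with r = 0.79, and in replicate 2 with 0.00. The part of the control RNA or of the 3 h array of replicate 1 in the other genes' differences was not tested.

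**Figure D4:**
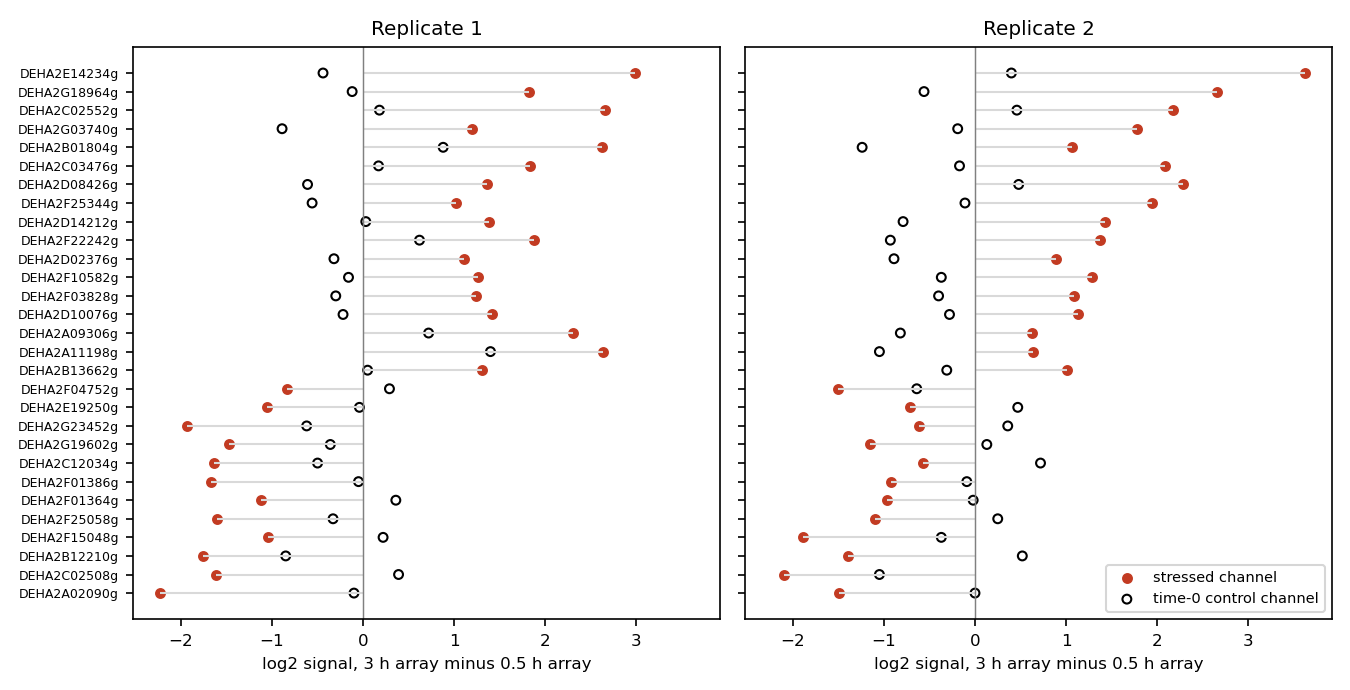
Log2 signal of the 3 h array minus that of the 0.5 h array in the stressed channel (filled) and the time-0 control channel (open) for the 29 named loci, in replicate 1 (left) and replicate 2 (right). The distance between the points of a locus is its difference of ratios, and for DEHA2E14234g the stressed channel lies at 2.99 and 3.63 and the control at -0.44 and 0.40.

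Size of difference and rank by statistic parted for loci whose arrays of 3 h or of 6 h lay far apart from each other. The following were singled out for the size of their difference, after the values were seen. DEHA2G18348g had the lowest difference of all, -3.08 ± 0.77 (SE, 2 arrays a time), with log2 ratios of 0.05 and -0.34 at 0.5 h and of -3.82 and -2.61 at 3 h. All 4 arrays place it far lower at 3 h, but its 6 h arrays stood at 0.20 and -2.45, and that spread enters the SE: the adjusted p was 0.292 in limma over the 6 arrays and 0.112 over the 4. DEHA2G21032g had -0.16 and 0.44 and then -3.29 and -1.43, a difference of -2.50 ± 0.58, for which limma's adjusted p was 0.236. DEHA2A03498g had 0.27 and 0.70 and then 1.80 and 3.50, a difference of 2.16 ± 0.59, for which limma's adjusted p was 0.321.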

How the data were processed

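Per the file headers, the scanner images had been read with Feature Extraction 9.1.3.1. The deposited intensities are median pixel signals and processed signals, and the deposited log10 ratios of processed red over green were not used. The authors' deposited log2 ratios served as an alternative, and limma is the tool in the submitters' processing notes. Their scale and direction were found by comparison with the arrays (r from 0.988 to 0.996 with loess ratios without background correction). Their medians at 0.5, 3 and 6 h were -0.00121, 0.00381 and 0.0106 in replicate 1 and 0.00289, -0.0109 and 0.00272 in replicate 2, and how they were centred is unknown here.

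Background was corrected on these median signals (normexp, offset 50), and loess, in which control spots had weight 0, was run within each array (limma 3.58.1 under R 4.3.3). Outlier flags removed 18 values. A probe was kept when 2 or more of its 12 channel values were well above background (11721 of 12640), and the brighter probe stood for a gene. All 6 arrays entered the fit that gave the 3 h minus 0.5 h contrast (lmFit, eBayes, Benjamini-Hochberg adjusted p of 0.05). The fit was tested on simulated data with independent noise on each array, so that test does not cover deviations shared by same-numbered arrays. Same-numbered arrays deviated together from their group means, with r across genes of 0.19 for 0.5 h and 3 h, 0.37 for 3 h and 6 h and 0.31 for 0.5 h and 6 h. Since every pair was above 0.1, the fit with the replicate block is given beside the other. Same-numbered arrays also share the dye orientation, so these correlations cannot show whether they share a culture.

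Accessions were matched to locus names of assembly ASM644v2 for 5348 of 6320 genes. The array files name no build, so no coordinates are given. Groups by product, promoter or protein could not be formed from the tables used here. The named loci and lists were chosen with earlier results of these data known: all called with or without the block, then the 12 highest and 12 lowest by moderated statistic with the same sign in both replicates, 4 and 4 of them with every array's value.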

Additional observations from a re-analysis of the deposited data

Results flagged for a closer look

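DEHA2E14234g differed between 3 h and 0.5 h by 3.33 on the log2 scale in a test of the difference itself. Over the 6 arrays of the series, 5 measures were searched for an array far from the others, which chance gives in about 1 of 20 searches, and 3 were marked, each on the 3 h array of replicate 1. Its spike-in slope was 0.295, its negative controls had a median red signal of 113.5 (73 to 88 on the rest), and the median correlation of its control channel with the other control channels was 0.91, where the others lay between 0.943 and 0.947. Without this array DEHA2E14234g was still called, and the count of calls was 14 in limma.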

How the results depend on the processing

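Over 20 alternatives the difference of DEHA2E14234g lay between 2.37 and 3.55. Its call ended in 5, with the processed signals (3.55, adjusted p 0.117 in limma), the authors' deposited table (3.07, 0.135), median centring (2.37, 0.0625) and without either 0.5 h array. Calls numbered 0 with the first 3 of these, 2 with the dimmer probe, 9 with a trended and robust moderation, 11 with the replicate block, 4 in the stressed channel alone and 0 in the control channel (the last chosen after seeing the data), and from 0 to 14 with 1 array left out. Genes at an unadjusted p under 0.05 numbered from 245 to 1137 with 1 array left out, the extremes being without the 0.5 h array of replicate 2 and the 3 h array of replicate 1. The correlation of the replicates' differences was 0.16 with the processed signals and with median centring, 0.37 over genes well above background in all channels, 0.27 with the dimmer probe, 0.34 with the mean over probes, 0.22 in the stressed channel and -0.19 in the control channel, and the cause was not tested. Of 578 values of the 29 loci under the alternatives, 29 newly passed and 1 turned, that of DEHA2F03828g under median centring (-0.13). Median centring made the difference of every higher named locus smaller and that of every lower one more negative (DEHA2A02090g from -1.81 to -2.45). It moved 11 of the 29 by over 1.5 times. Of these, 10 were higher loci, DEHA2D02376g among them (from 1.61 to 0.01), and 1 was DEHA2C12034g, which went to -1.88. Without the 3 h array of replicate 2 DEHA2B12210g moved from -1.41 to -0.93 and DEHA2G18964g from 2.58 to 1.71. Signal over background limits the dim genes: 3836 of 5966 genes were well above background in all 12 channel values.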

Other observations

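Neighbouring loci were compared by their order in the reference table. The difference of adjacent loci correlated with r = 0.08 over 4330 pairs, and that of loci 10 apart with r = 0.01 over 4193. The values carry no test, and what adjacent loci have in common was not examined. Both members of 10 adjacent pairs had a difference of at least 1 in size, 7 pairs in the same and 3 in opposite directions, named here after their values were seen. DEHA2D14212g and DEHA2D14234g were both below the control at 0.5 h, at -0.84 and -0.98, and higher at 3 h by 1.79 ± 0.25 and 1.62 ± 0.31 (SE, 2 arrays a time). DEHA2C07810g and DEHA2C07832g came from -1.29 and -1.77 to 0.17 and -0.15, close to the control. DEHA2F01364g and DEHA2F01386g were both lower by 1.22, which is a difference of -1.22. An opposite pair was DEHA2G17798g and DEHA2G17820g, at -1.28 and 1.89. In the fit over the 6 arrays without the block none of these passed the adjustment in limma. DEHA2D14212g and DEHA2D14234g passed with a trended and robust moderation and without the 3 h array of replicate 1, and DEHA2F01364g passed with that moderation.

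Genes at an unadjusted p under 0.05 were 8.04% higher and 2.12% lower of the 659 tested on chromosome D, and 4.41% higher and 6.23% lower of the 658 on chromosome C. Over all 5120 genes with a locus name the shares were 5.57% and 3.79%, and the difference between chromosomes was not tested.

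DEHA2E05148g, the locus with the highest ratio at 0.5 h, at 3.57, was at 2.10 at 3 h and 0.38 at 6 h. Its difference of -1.48 ± 0.46 (SE, 2 arrays a time) was -2.22 in replicate 1 and -0.74 in replicate 2, with an adjusted p of 0.407 in limma.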
